A study of Mus musculus with 11 samples.

Results

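The nuclear genes for the subunits of respiratory complexes II to V and for cytochrome c were followed in the tibialis anterior (TA), a fast limb muscle. A gene was a member if its symbol was *Sdha*, *Sdhb*, *Sdhc*, *Sdhd*, *Cyc1* or *Cycs*, or began with Uqcr, Atp5 or Cox4 to Cox8, and if its probe set did not lie on the mitochondrial chromosome. This gave 50 of the 21759 gene symbols on the array: 4 of complex II, 9 of complex III, cytochrome c, 19 of complex IV and 17 of complex V. The rule is one of names, and 3 of the 50 are not subunits: *Cox4nb* (*Emc8* in RefSeq) belongs to a complex of the endoplasmic reticulum membrane, and *Atp5s* (*Dmac2l*) and *Atp5sl* (*Dmac2*) are accessory proteins. Where a gene had several probe sets, the one of highest mean signal stood for it.

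Messenger RNA came from 3 wild-type mice (C57), 4 *mdx* mice without treatment and 4 given Pip6e-PMO, all labelled as strain C57/B10 (the methods name the *mdx* strain C57/Bl10ScSn-Dmdmdx/J), each hybridized to its own Affymetrix Mouse Gene ST 1.1 array. TA muscles were taken at 14 weeks of age from all 11 animals, and treatment was a single tail-vein injection of 12.5 mg/kg in saline at 12 weeks. *mdx* mice carry a nonsense mutation in the dystrophin gene in every cell, and the C57 mice were not injected. Pip6e-PMO is a morpholino oligonucleotide of 25 bases joined to a cell-penetrating peptide, and it makes the splicing machinery leave out the mutated exon. It is shown here because the sample labels separate the treated from the untreated *mdx* mice by this agent.
Pip6e-PMO: ggccaaacctcggcttacctgaaat

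Complex II (succinate dehydrogenase) feeds electrons from the citric acid cycle to ubiquinone, complex III passes them on to cytochrome c, complex IV (cytochrome c oxidase) hands them to oxygen, and complex V (ATP synthase) uses the resulting proton gradient to make ATP. The genes of all subunits of complex II and of cytochrome c are nuclear, whereas complexes III, IV and V are assembled from nuclear and mitochondrial products. Muscle has its own versions of some complex IV subunits: *Cox6a2*, *Cox7a1* and *Cox8b* are the heart and skeletal muscle isoforms of the ubiquitous *Cox6a1*, *Cox7a2* and *Cox8a*. Many of these genes are known to be driven together by the nuclear respiratory factor NRF1 and by the ETS factor GABP.

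Promoters are shown for letter matches to the motifs of these and other factors, and control by the factors was not tested. RefSeq windows (GRCm38.p6) of 250 bases before and 50 after the transcription start were found for 38 of the 50 members. None was listed for *Atp5a1*, *Cox4i1*, *Cox4i2*, *Cox4nb*, *Cox6a2*, *Cox6c*, *Cox8c*, *Cyc1*, *Sdhc*, *Uqcrb*, *Uqcrc2* and *Uqcrq*. Both strands were searched. The NRF1 motif GCGCATGC stood in 8 of 38 members (21.1%; *Atp5g2*, *Atp5k*, *Atp5l*, *Cox6a1*, *Cycs*, *Sdhb*, *Uqcr11* and *Uqcrc1*), against 3.05% of 27025 genes. The ETS motif CCGGAAG stood in 12 members (31.6%), against 9.93% of all genes. Both motifs were held by 5 members, and neither by 23 of the 38. The YY1 motif AAGATGGC was present in 4 members (10.5%; all genes 3.19%) and the ERR motif AAGGTCA in 5 (13.2%; all genes 5.38%). Of the muscle-type motifs, the E-box CAGCTG was found in *Atp5b* and *Cox8b* only (5.26%; all genes 18.3%), and the MEF2 motif TAAAAATA in none of the 38 (all genes 3.09%). Counts this small were not tested against those of all genes. No 2 different motifs overlapped in a member's window. These are letter matches and not binding sites.

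Below are stretches of 60 bases upstream of the start, 5′ to 3′ on the strand of the gene, with the matched letters in capitals. *Cycs* (chr6:50566600-50566659, minus strand), *Sdhb* (chr4:140961202-140961261, plus) and *Atp5k* (chr5:108434405-108434464, minus) show the NRF1 motif. In *Atp5k* the matches of both strands overlap to a palindrome, as they do in *Cox6a1*, for which a distal stretch (chr5:115349089-115349148, minus) and a proximal stretch with the ETS motif (chr5:115348959-115349018, minus) are given. *Cox8b* (chr7:140900447-140900506, minus) shows the E-box. *Atp5sl* (chr7:25619413-25619472, plus) shows the YY1 motif upstream of one of its 2 listed starts. *Sdha* (chr13:74350241-74350300, minus) and *Cox5a* (chr9:57521172-57521231, plus) are members that passed the test below, and their windows held none of the 6 motifs.
Cycs: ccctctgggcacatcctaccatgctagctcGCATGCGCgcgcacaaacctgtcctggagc
Sdhb: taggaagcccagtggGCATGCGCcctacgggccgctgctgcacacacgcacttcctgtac
Atp5k: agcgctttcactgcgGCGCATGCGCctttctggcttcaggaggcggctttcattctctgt
Cox6a1, distal: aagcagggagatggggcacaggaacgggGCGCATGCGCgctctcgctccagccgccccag
Cox6a1, proximal: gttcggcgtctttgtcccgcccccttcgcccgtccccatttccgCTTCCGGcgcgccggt
Cox8b: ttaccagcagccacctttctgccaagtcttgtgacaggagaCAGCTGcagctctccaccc
Atp5sl: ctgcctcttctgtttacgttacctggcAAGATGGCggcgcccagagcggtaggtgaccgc
Sdha: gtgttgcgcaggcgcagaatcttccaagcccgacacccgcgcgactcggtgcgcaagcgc
Cox5a: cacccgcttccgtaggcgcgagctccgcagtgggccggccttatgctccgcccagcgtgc

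Signals are given on the log2 scale, on which a difference of 1 is a doubling, and the number of arrays limits the precision. A probe set was tested if its mean signal reached 30 in at least 1 group, which 47 members did. The other 3, *Cox6b2*, *Cox7b2* and *Cox8c*, are isoforms known from testis and stayed below it. Differences come from a single limma fit of the 3 groups, and a member was called when its p, adjusted by Benjamini-Hochberg across the 14494 tested probe sets, was under 0.05. Median intensities per array ran from 27.5 to 28.6. The tissue label was borne out by 7 of 7 fibre markers (*Acta1*, *Ckm* and others), none of which was called in any contrast and whose summed signal ranged over the C57 mice from 49000 to 50400, over the *mdx* mice from 50200 to 50700 and over the treated mice from 48500 to 51600. The probe set of the targeted gene *Dmd* spans the whole gene and does not report the skipped exon. Its signal lay between 5.77 and 5.87 in C57, between 4.60 and 5.82 in *mdx* and between 5.51 and 6.34 in treated mice, and no contrast was called (limma adjusted p 0.142 to 0.961).

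A treated mouse, Pip6e-PMO mouse 2, stood apart. For its treated sample T2, of the same number, the paper reports the lowest exon skipping by RT-qPCR and the lowest dystrophin by mass spectrometry. Western blot values were not significantly correlated with these. By mRNA the paper found T2 the least restored and clustered closer to *mdx* than the other treated samples. The array of mouse 2 had the lowest weight of the 11 when limma estimated array weights (0.256, against 0.541 to 3.03 for the other treated mice). It lay more than 0.2 outside the range of the other treated mice for 14 of 47 members (29.8%; 38.2% of all tested probe sets): above it for *Sdhc*, *Sdhd*, *Uqcr11*, *Cox5b*, *Cox6a1* and *Cox8a*, and below it for *Sdha*, *Sdhb*, *Uqcrb*, *Uqcrc2*, *Cox7b*, *Atp5j*, *Atp5s* and *Cycs*. Members also moved together from mouse to mouse inside the groups. C57 mouse 3 had the highest C57 signal for 35 of 47 members (37.3% of all probe sets) and lay more than 0.2 above the other C57 mice for 14 (29.8%; 27.4% of all probe sets lay that far outside in either direction), *mdx* mouse 1 the highest *mdx* signal for 35 (21.7%) and *mdx* mouse 4 the lowest for 36 (28.2%). The values without these mice are therefore given where a result rests on them.

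**Figure D1:**
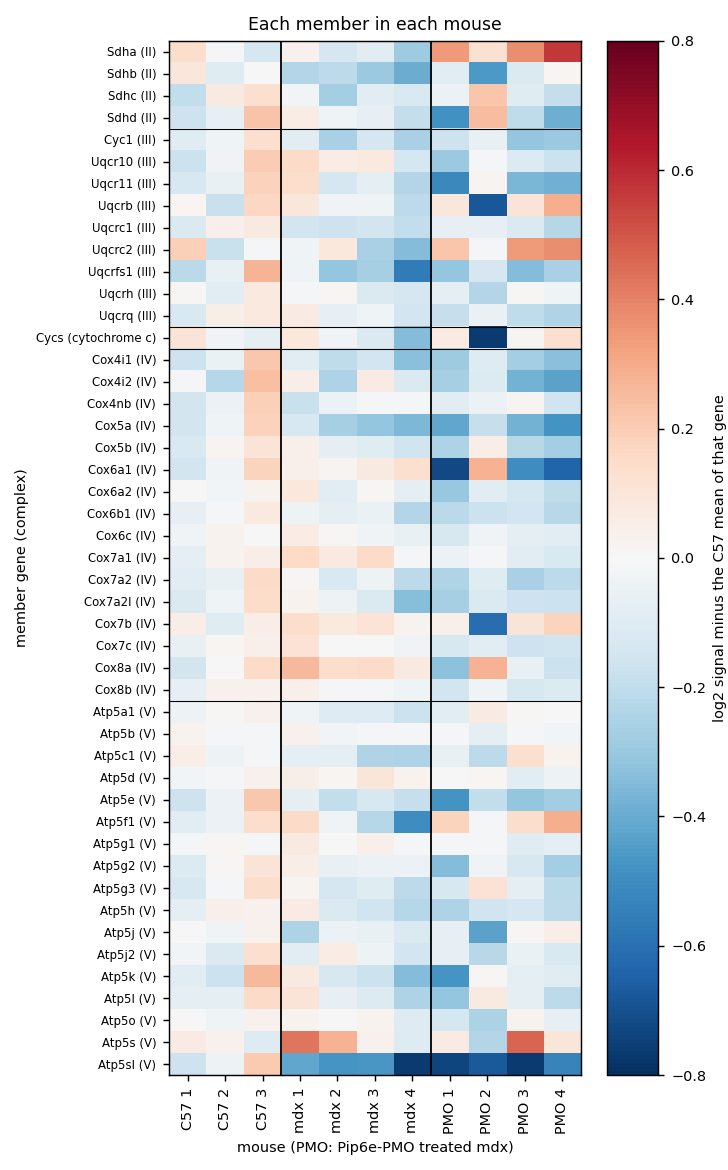
Signal of the 47 tested members (rows, by complex) in each of the 11 mice (columns), coloured by the log2 signal minus the C57 mean of that gene. *Atp5sl* is blue in all *mdx* and treated mice and *Sdha* is red in the treated mice, while most rows are pale; PMO 2 departs from the other treated mice in both directions.

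The question of whether dystrophic muscle carries less mRNA for these complexes was addressed by *mdx* against C57 mice. Only *Atp5sl* was called, and it was lower, so that no tested gene for a subunit passed. This is 1 of 47 members (2.13%), whereas 12.0% of all tested probe sets were called and 4.96% were called lower. At an unadjusted p under 0.05 there were 3 members (6.38%), *Atp5sl*, *Sdhb* and *Cox5a*, against 24.9% of all probe sets. In bulk tissue, fewer fibres and less RNA per fibre cannot be told apart.

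The differences between *mdx* and C57 were small and mostly negative. Of the 47 members 38 lay below 0 (80.9%; all probe sets 52.3%), with a median of -0.08 (all probe sets -0.01). The direction was shared by complex II (4 of 4 below 0), complex III (8 of 9), complex IV (11 of 16) and complex V (14 of 17). These counts were 4, 8, 9 and 12 when quantile normalization was repeated, where 57.1% of all probe sets lay below 0. They rested on C57 mouse 3. Without it 29 members lay below 0 (all probe sets 52.6%), and the median was -0.01 over members and over all probe sets. *Atp5sl* was then no longer called (limma adjusted p 0.0617, 7.83% of all probe sets called). The 95% interval of the difference stayed within a 1.5-fold change in either direction for 45 of 47 members, all but *Atp5sl* and *Uqcrfs1*, the Rieske iron-sulphur protein of complex III (-0.29, 95% interval -0.59 to 0.01). Every member's interval excluded a doubling, and all but that of *Atp5sl* reached no lower than -0.59 (n = 3 and 4 mice). Of the 47 tested members 39 lay above the 90th percentile of mean signal among tested probe sets. Whether the array narrows differences at signals that high was not tested. Groups that did not overlap were found for 5 of 47 members, all lower (*Sdhb*, *Uqcrc1*, *Atp5c1*, *Atp5j* and *Atp5sl*). Of all probe sets 11.3% were lower without overlap, and 24.3% did not overlap in either direction.

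Treated against untreated *mdx* mice addressed whether these genes differ after Pip6e-PMO. No *mdx* group given saline or another conjugate is described. Effects of exon skipping, of the injection and of the conjugate itself therefore cannot be told apart. *Sdha*, the catalytic flavoprotein of complex II, was the one member called (2.13%; all probe sets 11.1%, of which 7.26% were higher and 3.88% lower), and it was higher in treated mice. With *Sdha*, the members at an unadjusted p under 0.05 were *Uqcrc2*, *Cox6a1* and *Atp5f1*, making 4 of 47 (8.51%; all probe sets 31.5%). Differences above 0 were found for 11 members: *Sdha*, *Sdhb* and *Sdhc* of complex II, the core proteins *Uqcrc1* and *Uqcrc2* and the Rieske protein *Uqcrfs1* of complex III, and *Atp5a1*, *Atp5c1*, *Atp5f1*, *Atp5g3* and *Atp5j* of complex V. The other 36 lay below 0, among them all 16 of complex IV (median -0.11; all probe sets 0.02), which became 13 of 16 when quantile normalization was repeated. Under that setting 25 of the 47 members lay below 0 (all probe sets 51.2%) and the median was -0.02 (all probe sets -0.01). No complex IV member was called, and the intervals of 43 of 47 members lay within a 1.5-fold change.

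When Pip6e-PMO mouse 2 was left out, *Sdhb* (-0.28, limma adjusted p 0.0469) joined *Atp5sl* among the members called in *mdx* against C57 mice, where 15.2% of all probe sets then passed. In treated against *mdx* mice 5 members were then called, against 28.4% of all probe sets. *Sdha* (0.55, adjusted p 0.00571) and *Uqcrc2*, a core protein of complex III (0.45, adjusted p 0.0217), were higher in limma's fit of the remaining mice. *Cox6a1* (-0.68, adjusted p 0.00235), *Cox8a* (-0.34, adjusted p 0.0282) and the small complex III subunit *Uqcr11* (-0.35, adjusted p 0.0382) were lower. Conversely, the call of *Sdha* was lost without Pip6e-PMO mouse 1, 3 or 4 or *mdx* mouse 2, 3 or 4. Differences were then 0.40 to 0.48, with limma adjusted p of 0.0514 to 0.0791, and 2.04% to 6.81% of all probe sets were called.

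Treated against C57 mice shows what separated treated from healthy muscle. *Atp5sl* and *Cox5a* were called, both lower, which is 2 of 47 members (4.26%) against 24.6% of all probe sets, or 8.96% in the lower direction. At an unadjusted p under 0.05 there were 8 members (17.0%; all probe sets 39.7%). Here 43 of 47 differences lay below 0 (91.5%; all probe sets 49.5%), with a median of -0.13 (all probe sets 0.00), and all 16 complex IV members were among them with a median of -0.18. When quantile normalization was repeated, 30 members and 13 of the complex IV members lay below 0 (all probe sets 55.0%). The median over members was then -0.03, against -0.04 over all probe sets. Only *Sdha*, *Uqcrc2*, *Atp5f1* and *Atp5s* lay above 0 as deposited. Just outside the threshold were *Atp5e*, the epsilon subunit of ATP synthase (-0.31, limma adjusted p 0.0511), and *Sdha* (0.35, adjusted p 0.0523), which was called with quantile normalization repeated (0.49, adjusted p 0.0115). Without Pip6e-PMO mouse 2, 7 members were called (34.1% of all probe sets): *Sdha* was higher, and *Atp5sl*, *Cox5a*, *Cox6a1*, *Atp5e*, *Uqcr11* and *Sdhd* were lower. This contrast shares its treated mice with the comparison against *mdx* and its C57 mice with the comparison of *mdx* and C57, so the contrasts are not independent.

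**Figure D2:**
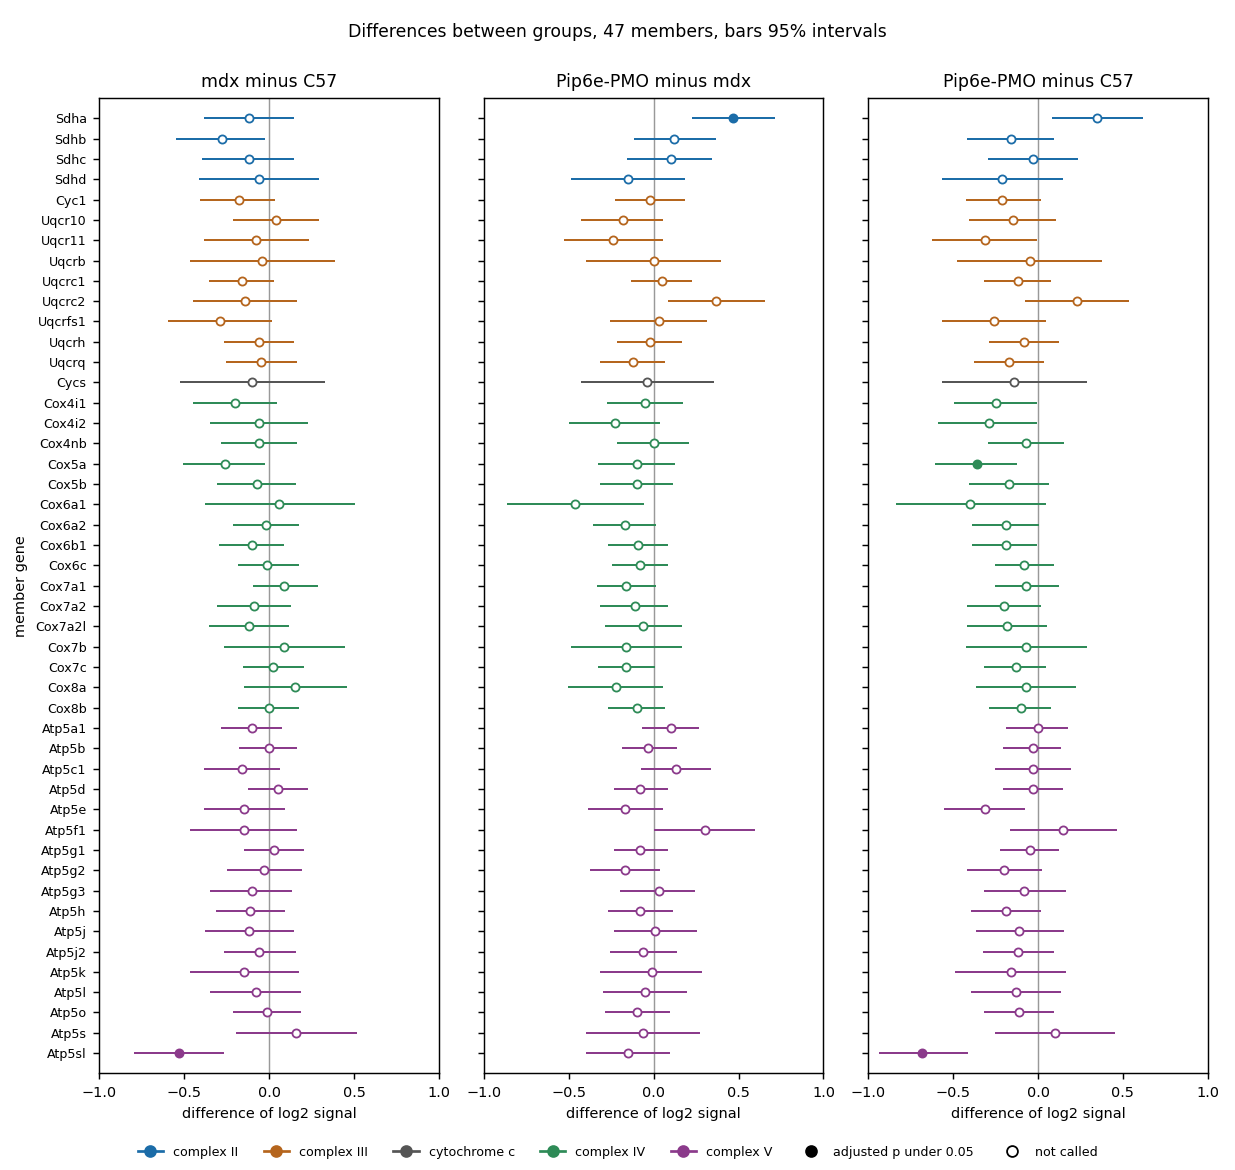
Difference of log2 signal between groups (x axis) for the 47 tested members (y axis, coloured by complex), with 95% intervals from limma; filled points passed an adjusted p under 0.05. Only *Atp5sl* in *mdx* minus C57, *Sdha* in treated minus *mdx*, and *Atp5sl* and *Cox5a* in treated minus C57 are filled, and all complex IV points of both treated contrasts lie at or below 0.

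Among the complex II genes *Sdha* was the one called. It measured 11.33, 11.18 and 11.05 in C57, 11.22, 11.05, 11.10 and 10.90 in *mdx*, and 11.53, 11.31, 11.56 and 11.75 in treated mice. All 4 treated mice lay above all 4 *mdx* mice, as they did for 9.29% of all probe sets, and mouse 2 was the lowest of the treated mice. The *mdx* mean of 11.07 ± 0.13 (SD, n = 4) compares with a treated mean of 11.54 ± 0.18 (SD, n = 4), a difference of 0.47 (SE 0.11, limma adjusted p 0.0263) or 1.39-fold. Its partner in the catalytic part, the iron-sulphur protein *Sdhb*, was 11.58 ± 0.10 in C57 (SD, n = 3) and 11.29 ± 0.08 in *mdx* (SD, n = 4); the groups did not overlap, but the difference of -0.28 missed the threshold (limma adjusted p 0.146). In treated against *mdx* mice *Sdhb* differed by 0.12 (95% interval -0.11 to 0.36), the membrane anchor *Sdhc* by 0.10 (-0.15 to 0.34) and the anchor *Sdhd* by -0.15 (-0.48 to 0.18).

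In complex III no member was called in any contrast. *Uqcrc1*, a core protein and the member of this complex with the highest signal, measured 12.09, 12.25 and 12.28 in C57, 12.06, 12.04, 12.06 and 12.01 in *mdx*, and 12.14, 12.14, 12.09 and 11.98 in treated mice. Its *mdx* mice lay just below all C57 mice, by -0.16 on average (SE 0.09, limma adjusted p 0.266). Differences of the 9 members ran from -0.29 (*Uqcrfs1*) to 0.04 (*Uqcr10*) in *mdx* against C57, from -0.24 (*Uqcr11*) to 0.37 (*Uqcrc2*) in treated against *mdx*, and from -0.31 (*Uqcr11*) to 0.23 (*Uqcrc2*) in treated against C57 mice. *Uqcrc2* was 11.35 ± 0.20 in *mdx* and 11.72 ± 0.17 in treated mice (SD, n = 4 each; limma adjusted p 0.0758).

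Cytochrome c, the mobile carrier between complexes III and IV, was measured by a probe set that lies on chromosome 5 and not with *Cycs* on chromosome 6, so it can read related sequences. It gave 11.95, 11.82 and 11.77 in C57, 11.93, 11.82, 11.73 and 11.50 in *mdx*, and 11.91, 11.08, 11.87 and 11.98 in treated mice. The 3 groups overlapped, and Pip6e-PMO mouse 2 was the lowest of all mice. Differences were -0.10, -0.04 and -0.14 in the 3 contrasts, with adjusted p of 0.623 to 0.913 by limma. The probe set at the gene's own locus stayed below the minimum signal, at a mean of 4.64.

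**Figure D3:**
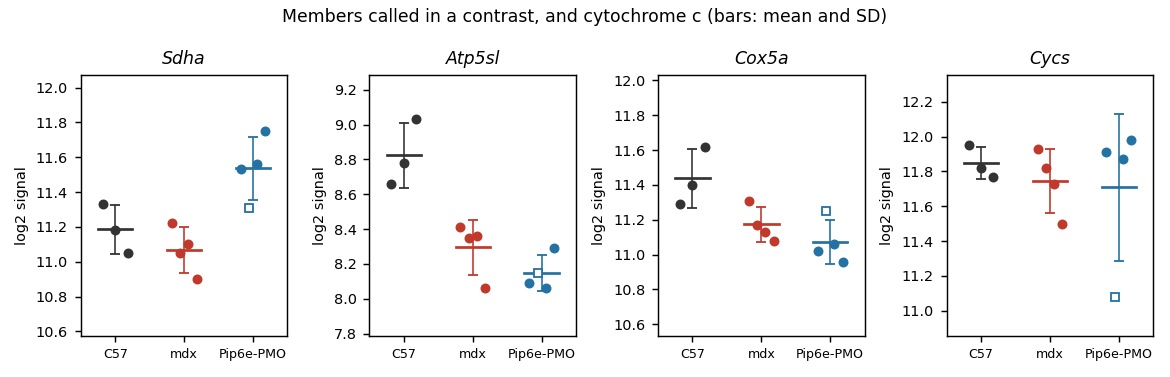
Log2 signal (y axis) of *Sdha*, *Atp5sl*, *Cox5a* and *Cycs* in each mouse by group (x axis); lines and whiskers are group means and SD, every panel spans the same height, and the open square is Pip6e-PMO mouse 2. Treated mice lie above *mdx* mice for *Sdha*, *mdx* and treated mice lie below C57 for *Atp5sl*, and the square is the lowest point for *Cycs*.

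*Cox5a*, a nuclear subunit of complex IV present in all tissues, was the one oxidase gene called. It measured 11.29, 11.40 and 11.62 in C57, 11.31, 11.17, 11.13 and 11.08 in *mdx*, and 11.02, 11.25, 11.06 and 10.96 in treated mice. Treated mice lay below all C57 mice, and *mdx* mouse 1 lay within the C57 range. The mean fell by 0.36 from C57 to treated mice (SE 0.11, limma adjusted p 0.0311), or to 0.777-fold, and the *mdx* mean lay between them. With quantile normalization repeated the treated minus C57 difference was -0.23 (limma adjusted p 0.166, 24.8% of all probe sets called). Leaving out C57 mouse 2 or 3 or Pip6e-PMO mouse 1, 3 or 4 also lost the call (limma adjusted p 0.063 to 0.135). Of all probe sets 13.1% to 19.5% were then called.

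The isoform pairs of complex IV were compared next, starting with *Cox6a1*, the ubiquitous version of subunit VIa. It measured 8.86, 8.98 and 9.19 in C57, 9.05, 9.03, 9.08 and 9.14 in *mdx*, and 8.29, 9.29, 8.51 and 8.37 in treated mice. Treated mice 1, 3 and 4 lay below every other mouse of the study, and mouse 2 lay above every other mouse. The treated mean was 8.61 ± 0.46 (SD, n = 4), against 9.07 ± 0.05 in *mdx* (SD, n = 4), a difference of -0.46 (SE 0.18, limma adjusted p 0.112). Its muscle isoform *Cox6a2* measured 12.41, 12.39 and 12.44 in C57, 12.50, 12.33, 12.42 and 12.34 in *mdx*, and 12.11, 12.32, 12.27 and 12.21 in treated mice. The treated mice lay below all others, by -0.17 against *mdx* (SE 0.08, limma adjusted p 0.172) and by -0.19 against C57 mice (adjusted p 0.133).

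Subunit VIII gave a like picture for the ubiquitous isoform. *Cox8a* measured 10.54, 10.69 and 10.84 in C57, 10.95, 10.83, 10.84 and 10.76 in *mdx*, and 10.36, 10.97, 10.63 and 10.52 in treated mice. Mouse 2 was again the highest of all 11 and the other treated mice lay below all *mdx* mice, so that the difference of -0.22 (SE 0.12) was not called (limma adjusted p 0.239). *Cox8b*, the muscle isoform, measured 12.64, 12.74 and 12.74 in C57, 12.75, 12.70, 12.69 and 12.67 in *mdx*, and 12.56, 12.67, 12.58 and 12.60 in treated mice. Its groups differed by at most 0.10 in either direction, and the *mdx* and C57 means were 12.70 and 12.71.

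For subunit VIIa, the ubiquitous *Cox7a2* measured 11.33, 11.36 and 11.57 in C57, 11.43, 11.30, 11.38 and 11.21 in *mdx*, and 11.18, 11.32, 11.16 and 11.21 in treated mice. The treated mice lay below all C57 mice (-0.20, SE 0.10, limma adjusted p 0.136) and overlapped with *mdx*. The muscle isoform *Cox7a1* measured 12.52, 12.63 and 12.65 in C57, 12.76, 12.67, 12.75 and 12.59 in *mdx*, and 12.55, 12.59, 12.51 and 12.48 in treated mice. It was one of 9 members above 0 in *mdx* against C57 (0.09, 95% interval -0.09 to 0.28). Subunit IV is present as the common *Cox4i1* and as *Cox4i2*, best known from lung. *Cox4i1* measured 11.54, 11.65 and 11.92 in C57, 11.61, 11.50, 11.55 and 11.37 in *mdx*, and 11.42, 11.60, 11.43 and 11.37 in treated mice, and *Cox4i2* measured 6.99, 6.78 and 7.25, then 7.06, 6.76, 7.07 and 6.89, and then 6.74, 6.90, 6.63 and 6.58 in the same order. Both overlapped between groups, with treated minus C57 differences of -0.25 and -0.29 (limma adjusted p 0.114 for each).

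Whether an isoform moved unequally with its partner was tested on the log2 signal of one minus the other within each mouse. None of the 12 exact permutation tests, two-sided, passed after adjustment, the lowest adjusted p being 0.411. The two-sided p was the smaller one-sided p doubled, and by this convention 3 against 4 mice cannot go below 0.0571 and 4 against 4 mice cannot go below 0.0286. *Cox7a2* over *Cox7a1* reached that floor in *mdx* against C57, at a difference of -0.18: the log ratio was -1.19, -1.27 and -1.08 in C57 mice and lower in every *mdx* mouse, at -1.33, -1.37, -1.37 and -1.38. *Cox8a* over *Cox8b* was higher by 0.16 in *mdx* (exact p 0.114), and *Cox6a1* over *Cox6a2* differed by -0.29 in treated against *mdx* mice (exact p 0.171), where mouse 2 had the highest log ratio of all mice (-3.03) and the other treated mice the lowest (-3.84 to -3.76). These ratios show unequal change of paralogues and not a ratio of transcripts.

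**Figure D4:**
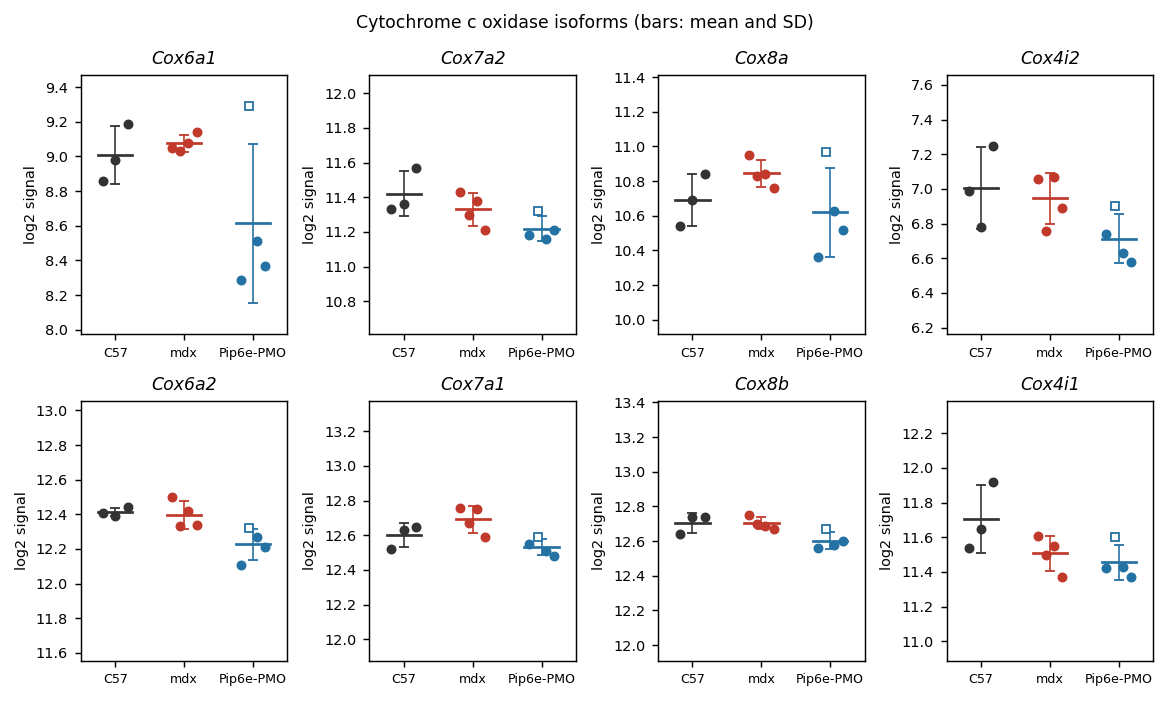
Log2 signal (y axis) of ubiquitous or non-muscle isoforms (upper row) and of their muscle or common partners (lower row) in each mouse by group (x axis); lines and whiskers are means and SD, every panel spans the same height, and the open square is Pip6e-PMO mouse 2. For *Cox6a1* and *Cox8a* the square lies above all other points and the remaining treated mice lie below all *mdx* mice.

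No call was made among the remaining complex IV members, which does not show that they were equal. In *mdx* against C57 mice *Cox5b*, *Cox6b1*, *Cox6c*, *Cox7b*, *Cox7c*, *Cox7a2l* and *Cox4nb* differed by -0.12 (*Cox7a2l*, a supercomplex factor) to 0.09 (*Cox7b*). Both ends were read by probe sets on another chromosome than the gene. The probe sets on the genes' own chromosomes gave -0.11 for *Cox7a2l* and -0.00 for *Cox7b*. In treated against *mdx* mice *Cox7c* was below *mdx* in every treated mouse (-0.16, 95% interval -0.32 to 0.00, limma adjusted p 0.169), as was *Cox6a2*. Groups that did not overlap in the lower direction were thus found for 2 members in this contrast, which all probe sets showed at 6.69%. *Sdha* was the 1 member higher without overlap (all probe sets 9.29%, and 16.0% in either direction). In treated against C57 mice groups without overlap in the lower direction were found for 8 members (all probe sets 14.1%). Of these 5 were of complex IV (*Cox5a*, *Cox6a2*, *Cox6b1*, *Cox7a2* and *Cox7c*). No member lay above C57 without overlap (17.9% of all probe sets; 32.0% in either direction).

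In complex V the only called gene was one that is no subunit. *Atp5sl*, now *Dmac2* and known from the assembly of the membrane arm of complex I, measured 8.66, 8.78 and 9.03 in C57, 8.41, 8.35, 8.36 and 8.06 in *mdx*, and 8.09, 8.15, 8.06 and 8.29 in treated mice. Every *mdx* and every treated mouse lay below every C57 mouse. The mean fell by 0.53 in *mdx* (SE 0.12, limma adjusted p 0.0124; 0.693-fold) and by 0.68 in treated mice (SE 0.12, adjusted p 0.00261; 0.626-fold) against C57. Treated and *mdx* mice differed by -0.15 (95% interval -0.39 to 0.09).

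*Atp5a1* and *Atp5b*, the alpha and beta subunits of the catalytic head of ATP synthase, differed by at most 0.10 in either direction in the 3 contrasts, and the standard errors were 0.07 to 0.08. *Atp5c1*, *Atp5d* and *Atp5e*, the gamma, delta and epsilon subunits of the stalk, differed by -0.16 to 0.05 in *mdx* against C57 mice. *Atp5f1* (*Atp5pb*), the b subunit of the stator, was 10.19 ± 0.28 in *mdx* and 10.49 ± 0.12 in treated mice (SD, n = 4 each), with a limma adjusted p of 0.141 and a similar difference of 0.31 at the probe set on its own chromosome (adjusted p 0.0768). The stator and membrane subunits *Atp5h*, *Atp5j*, *Atp5j2*, *Atp5k*, *Atp5l* and *Atp5o* differed by -0.15 to -0.01 in *mdx* against C57 mice and by -0.10 to 0.01 in treated against *mdx* mice.

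The genes *Atp5g1*, *Atp5g2* and *Atp5g3* encode the same c subunit of the rotor ring behind different import signals. *Atp5g1* measured 12.93, 12.95 and 12.93 in C57, 13.01, 12.94, 12.98 and 12.93 in *mdx*, and 12.92, 12.93, 12.84 and 12.86 in treated mice. For *Atp5g2* the values were 12.43, 12.55 and 12.64 in C57, 12.59, 12.48, 12.49 and 12.49 in *mdx*, and 12.19, 12.51, 12.41 and 12.27 in treated mice. All groups overlapped for both genes. *Atp5g3* gave 11.98, 12.09 and 12.25 in C57, 12.13, 11.97, 12.01 and 11.90 in *mdx*, and 11.98, 12.22, 12.03 and 11.89 in treated mice. The largest difference among the 3 was that of *Atp5g2* in treated against C57 mice (-0.20, SE 0.10, limma adjusted p 0.163). The probe sets of *Atp5g1* and *Atp5g2* are of the class that can bind other transcripts, and that of *Atp5g2* lies on another chromosome than the gene.

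Members were also set side by side by promoter letters. The 15 tested members with an NRF1 or ETS motif had a median difference of -0.10 in *mdx* against C57, -0.08 in treated against *mdx* and -0.16 in treated against C57 mice, and the 21 tested members with neither had medians of -0.06, -0.08 and -0.10. The first set ran from -0.46 to 0.12 and the second from -0.18 to 0.47 in treated against *mdx* mice, with *Cox6a1* lowest in the first and *Sdha* highest in the second. These medians were not tested against each other.

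Assembly factors of complexes II to V were listed together with the ATP synthase inhibitor *Atpif1*. Counted in either direction, the list was called above the share of all probe sets in *mdx* against C57 mice and close to it in both treated contrasts. It was chosen with earlier results of these data known and was not tested against the subunits. Of 22 measured, 5 fell in *mdx* against C57 mice (22.7%, against 12.0% of all probe sets called and 4.96% called lower). By limma these were *Bcs1l*, which inserts the Rieske protein (-0.58, adjusted p 0.00256), and *Cox18*, a membrane insertase for complex IV (-0.52, adjusted p 0.00368). The others were *Atpaf1*, a chaperone of the ATP synthase head (-0.58, limma adjusted p 0.0254), *Uqcc*, a complex III assembly factor (-0.42, adjusted p 0.0204), and *Cox10*, which makes heme for complex IV (-0.43, adjusted p 0.0314). None rose, and the median of the list was -0.14. In treated against *mdx* mice 3 rose and none fell (13.6%, against 11.1% of all probe sets called and 7.26% called higher). By limma they were *Atpaf1* (0.61, adjusted p 0.0229), *Lrpprc*, which stabilizes mitochondrial mRNA (0.60, adjusted p 0.0168), and *Ttc19*, of complex III (0.61, adjusted p 0.0155). *Atpaf1* measured 8.54, 8.54 and 8.50 in C57, 8.15, 8.04, 8.07 and 7.53 in *mdx*, and 8.67, 8.28, 8.60 and 8.69 in treated mice, so that the *mdx* mice lay below all others. In treated against C57 mice 5 were lower (*Bcs1l*, *Cox18*, *Uqcc*, *Atpaf2* and *Cox19*) and *Ttc19* was higher (27.3%; all probe sets 24.6%).

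Among 10 regulators of mitochondrial genes, *Ppara*, a receptor that drives fatty acid oxidation, was lower in *mdx* than in C57 mice (-0.70, limma adjusted p 0.0186). *Gabpa*, the DNA-binding subunit of GABP, was higher in treated mice than in *mdx* (0.70, adjusted p 0.0143) and C57 mice (0.63, adjusted p 0.00934). It measured 5.61, 5.70 and 5.87 in C57, 5.74, 5.74, 5.71 and 5.46 in *mdx*, and 6.36, 6.01, 6.39 and 6.68 in treated mice. *Ppargc1a*, the coactivator of mitochondrial biogenesis, was higher in treated than in C57 mice (0.74, adjusted p 0.0453). Of the 10 regulators 1, 1 and 2 were called in *mdx* against C57, treated against *mdx* and treated against C57 mice, where 12.0%, 11.1% and 24.6% of all probe sets were called. Of 12 citric acid cycle genes, *Idh3a* (0.61, adjusted p 0.0214) and *Fh1* (0.55, adjusted p 0.0339) were higher in treated than in *mdx* mice (16.7%; all probe sets 11.1%, higher 7.26%) and none was lower. None of the 12 was called in *mdx* against C57 mice, where 12.0% of all probe sets were. Against C57 mice only *Idh3a* was called in treated mice, and it was higher (8.33%, against 24.6% of all probe sets). Complex I was taken by name, as the 38 symbols that begin with Nduf but not Ndufaf, *Ndufa4* and *Ndufa4l2* among them. Of these 1, 3 and 7 were called in the 3 contrasts (2.63%, 7.89% and 18.4%), below the 12.0%, 11.1% and 24.6% of all probe sets. *Ndufa8* was lower in *mdx* (-0.46). *Ndufs1*, the largest subunit, was higher in treated than in *mdx* mice (0.79) while *Ndufa7* (-0.40) and *Ndufa2* (-0.42) were lower. All 7 in treated against C57 mice were lower. The subunits whose names the rule does not catch (*Ndufa4*, *Usmg5* and *2010107E04Rik* were tested, the first of which also counts among the complex I names) gave no call in any contrast.

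Other cell types and fibre types moved in the same mice. Markers counted here as rising or falling are those called. Of all probe sets 12.0% were called in *mdx* against C57 mice (7.06% higher). In treated against *mdx* mice 11.1% were called (7.26% higher, 3.88% lower). All 6 macrophage markers rose in *mdx* (summed signal between 865 and 1280 for C57, between 2390 and 3770 for *mdx* and between 1940 and 2490 for treated mice), as did all 4 markers of regenerating fibres (978 to 1470, 2990 to 4760 and 1540 to 3370 in the same order), and 2 of 6 fibroblast markers (4520 to 6300, 6640 to 8120 and 6190 to 10600 likewise). In treated against *mdx* mice 3 of 4 tested adipocyte markers fell (median -1.60), 2 of 4 endothelial markers rose, and of 6 tested slow and oxidative fibre markers *Myh2* (1.45) and *Myl3* (0.81) rose while *Myl2* (-0.75) and *Tnnt1* (-0.79) fell; in *mdx* against C57 mice *Myl3* was lower (-1.67) and *Tnni1* higher (2.47, limma adjusted p 0.0132), and *Myh7*, the slow myosin, did not reach the minimum signal. The brown adipocyte marker *Ucp1* did not reach it either, *Cidea* was higher in *mdx*, and no blood marker was called. The part of these cells and fibres in the values of the members was not tested.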

How the data were processed

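The authors extracted total RNA from cryosections of the TA, hybridized it to Mouse Gene ST 1.1 arrays and made the values in Affymetrix Expression Console (RMA background correction, sketch-quantile normalization, median polish). The deposited values are intensities on the linear scale for 28350 probe sets, one column per mouse, without pooling. The array positions name no genome build and are not printed, except as chromosomes.

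Intensities were log2-transformed. limma 3.58.1 in R 4.3.3 (lmFit, eBayes) fitted all 11 mice with a mean per group, on the 14494 probe sets whose group mean reached a signal of 30 in any group, and p-values were adjusted over all of them. The fit was tested on simulated data. Of the 50 members, 13 had more than 1 probe set (71 in all), 12 were read by a probe set that can cross-hybridize, and 6 by a probe set on another chromosome than the gene in RefSeq. Values in every mouse are given for called members, isoform pairs, the c-subunit genes, and the highest-signal member of a complex without a call; those and the lists were chosen with earlier results of these data known. Isoform log ratios were tested with SciPy 1.17.1 and plots drawn with matplotlib 3.10.9 in Python 3.11.15. Alternatives were other normalizations, filters, priors, array weights, the methods' t-test, a fit restricted to each pair of groups, a replicate block, averaging the probe sets of a gene and leaving out each mouse; taking the probe set of cross-hybridization class 1 was chosen after seeing the data. Mice were separate samples by their labels; litter and batch are not given in the sources used here, so p-values measure only the spread between these samples. Protein sequences were not used here.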

Additional observations from a re-analysis of the deposited data

Results flagged for a closer look

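In groups of 4 mice, a mouse was singled out when its distance to the next mouse made up more of the group's range than Dixon's 95% critical value for 4 samples allows. This held for 6 of the 94 groups examined (6.38%, where chance gives about 5%). Pip6e-PMO mouse 2 accounted for 3 of them: *Cycs* at 11.08, with the other treated mice at 11.87 to 11.98; *Cox5b* at 12.13, with the others at 11.81 to 11.86; and *Atp5b* at 12.52, with the others at 12.57 to 12.58. In *mdx*, mouse 1 stood out for *Atp5g2* (12.59, others 12.48 to 12.49) and *Atp5b* (12.63, others 12.57 to 12.58), and mouse 4 for *Cox6b1* (11.82, others 11.98 to 12.01).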

How the results depend on the processing

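The counts of called members moved with the processing, as did the share of all probe sets called, which follows each count in brackets. In *mdx* against C57 mice the count was 1 (12.0%). It was 0 with the methods' t-test (5.46%), 0 with the replicate block (7.9%), and 0 to 2 when mice were left out (6.94% to 15.2%). In treated against *mdx* mice the count was 1 (11.1%). It became 2 with repeated quantile normalization (9.13%), 2 with a trended and robust prior (11.9%) and 10 with array weights (31.8%). It became 0 with the methods' t-test (0.607%), 0 with the replicate block (3.44%), and 0 to 5 when mice were left out (2.04% to 28.4%). In treated against C57 mice the count was 2 (24.6%). It became 1 with the methods' t-test (8.79%), 1 with only the groups compared (18.7%) and 1 with the replicate block (16.1%). It became 6 with a trended and robust prior (25.1%), 12 with array weights (45.2%) and 4 when the probe sets of a gene were averaged (26.1%). When mice were left out it was 1 to 7 (13.1% to 34.1%). With repeated quantile normalization the median difference over members was -0.02 in treated against *mdx* mice (all probe sets -0.01). In treated against C57 mice it was -0.03 (all probe sets -0.04), and -0.18 with arrays centred on their median (all probe sets -0.04). Same-numbered mice did not deviate together (r from -0.297 to 0.153 over 10 pairs, 1 of them over 0.1), so their numbers were not taken as pairs; with the replicate block *Atp5sl* in treated against C57 mice kept its call (-0.66).

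The call of *Atp5sl* in treated against C57 mice held under every alternative run, including each mouse left out (limma adjusted p at most 0.0165; 0.0345 with the t-test). Single signs were followed for the called members, isoform pairs, c-subunit genes, *Uqcrc1* and *Cycs*. Among these they turned only for differences that were not called. Other members turned too. With repeated quantile normalization 22 of 47 members lay above 0 in treated against *mdx* mice (11 as deposited). In treated against C57 mice 17 did (4 as deposited). Without C57 mouse 3, 18 lay above 0 in *mdx* against C57 mice (9 with all mice). The genes named below are those followed singly. With repeated quantile normalization, treated minus *mdx* became 0.05 for *Cox4i1*, 0.04 for *Cox5a*, 0.01 for *Cox7a2* and 0.07 for *Cycs*; treated minus C57 became 0.03 for *Atp5g3*, 0.01 for *Cox7a1* and 0.03 for *Cox8a*; and *mdx* minus C57 became 0.02 for *Cox8b*, which was 0.00 with the replicate block. With array weights, treated minus *mdx* became -0.01 for *Atp5g3* and 0.11 for *Cycs*, treated minus C57 0.03 for *Cycs* and *mdx* minus C57 0.08 for *Cox4i2*; with arrays centred, *mdx* minus C57 became -0.01 for *Atp5g1*. Leaving out mice turned *mdx* minus C57 for *Atp5g2* (-0.08 to 0.02), *Cox4i2* (-0.17 to 0.06), *Cox6a1* (-0.01 to 0.16), *Cox6a2* (-0.05 to 0.01) and *Cox8b* (-0.04 to 0.01), treated minus *mdx* for *Atp5g3* (-0.04 to 0.07) and *Cycs* (-0.12 to 0.18), and treated minus C57 for *Cox8a* (-0.19 to 0.02) and *Cycs* (-0.23 to 0.07), and the treated minus C57 log ratios of *Cox4i2* over *Cox4i1* (-0.13 to 0.03) and *Cox8a* over *Cox8b* (-0.06 to 0.11). The causes were not tested.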
